A study of Homo sapiens with 7 samples.

Results

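Tubulin genes were examined in HCT116, an established human colorectal carcinoma cell line, at 3 steps of gene expression. The genes were the 10 alpha and beta tubulins TUBA1A, TUBA1B, TUBA1C, TUBA4A, TUBB, TUBB2A, TUBB2B, TUBB3, TUBB4B and TUBB6, found by symbol among the 20072 gene symbols of the series. Transcription rate (TR) was read by GRO-seq in 2 libraries, steady-state mRNA abundance (RA) by RNA-seq in 3 libraries and translation activity (TA) by polysome profiling in 2 libraries, 7 in all. All cells were in log phase, grown without serum and with epidermal growth factor, insulin and transferrin, and no group carried a mutation, drug or time point as a variable. GRO-seq reads RNA that polymerases extend in isolated nuclei, and for polysome profiling the cells were first given cycloheximide, which holds ribosomes on their mRNAs. The study calls the libraries biological replicates of 1 cell line, and describes dividing a culture among the 3 assays, but neither it nor the labels say that equal replicate numbers mark parts of 1 culture, so p-values measure only the spread between these libraries. Values are RPKM, read counts scaled by exon length and by a total of reads per library.

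Of the 10 genes, 9 reached a mean of 1 RPKM in TR, RA or TA and were tested among the 14305 genes that did so, and TUBB2B did not pass it. Library sizes worked out from the values were 3391897 and 5629982 reads for TR, against 20299018 to 30805391 for RA and TA. Reads on the listed genes made up 3384946 of the 3391897 in TR replicate 1 and 20252745 of the 20299018 in RA replicate 1. These sizes are thus close to the exon reads counted, and are not taken as all mapped reads. The 9 tested genes had 111 to 1834 reads each in the shallowest library, so counting error was smallest for RA and TA. The epithelial keratins and EPCAM that mark colorectal epithelium were abundant, with a mean RA of 700 RPKM for KRT8, 978 RPKM for KRT19 and 210 RPKM for EPCAM. Of the intestinal markers, CDX2 had a mean RA of 8.96 RPKM, whereas VIL1 and CDX1 had 0.0118 and 0.00915 RPKM. Of 8 markers of blood, stroma, endothelium and neurons, 6 had a mean RA under 1 RPKM, and COL1A1 with 11.5 RPKM and SYT1 with 15.9 RPKM did not.

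Alpha and beta tubulin form the heterodimer from which microtubules are built, and each is encoded by several genes, the isotypes, whose use differs between tissues. TUBB3 is best known from neurons, TUBA4A from blood platelets and muscle, and TUBA1B, TUBA1C, TUBB and TUBB4B from dividing cells of many kinds. Tubulin mRNAs are also a textbook case of control during translation: when free heterodimer is in excess, TTC5 recognises the amino-terminal residues of nascent tubulin at the ribosome, and SCAPER links it to the CCR4-NOT deadenylase, after which the mRNA is degraded. Those residues are encoded by the first codons, so the coding starts are given here. They were read from the canonical transcripts of GENCODE release 44 lifted to GRCh37, on the coding strand from 5′ to 3′, with the first 4 codons in capitals.

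TUBA1A: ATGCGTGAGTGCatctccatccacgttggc
TUBA1B: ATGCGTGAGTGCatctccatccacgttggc
TUBA1C: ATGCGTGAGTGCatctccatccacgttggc
TUBA4A: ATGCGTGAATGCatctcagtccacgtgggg
TUBB: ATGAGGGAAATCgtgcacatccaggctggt
TUBB4B: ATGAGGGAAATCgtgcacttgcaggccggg
TUBB3: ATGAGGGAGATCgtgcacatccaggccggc
TUBB6: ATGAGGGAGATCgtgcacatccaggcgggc
TUBB2A: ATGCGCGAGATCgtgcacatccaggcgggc
TUBB2B: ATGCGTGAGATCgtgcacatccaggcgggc
TUBG1: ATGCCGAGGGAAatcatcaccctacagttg

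The first 12 bases fell into 6 forms among the 10 genes. These are forms of the bases and not of the residues. Within the alpha genes, and within the beta genes, they differ only by synonymous codons. TUBA1A, TUBA1B and TUBA1C shared 1 form, TUBB and TUBB4B another, TUBB3 and TUBB6 another, and TUBA4A, TUBB2A and TUBB2B each had their own. Of 19632 coding starts searched, 3 held the form of the TUBA1 genes (0.0153%), and besides the 10 genes TUBB8B held that of TUBB and TUBB8 that of TUBB3. TUBG1, which encodes the gamma tubulin of the nucleating ring complex, is printed for comparison and shared none of the 6 forms.

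The TUBA1 genes lie together on chromosome 12 (GRCh37), TUBA1B at chr12:49521565-49525180 and TUBA1A at chr12:49578469-49582863 on the minus strand and TUBA1C at chr12:49582519-49668383 on the plus strand. TUBA4A is at chr2:220114432-220142624. TUBB is at chr6:30685212-30693315, and TUBB2A and TUBB2B are neighbours at chr6:3153731-3157778 and chr6:3223558-3231964. TUBB3 is at chr16:89987800-90005169, TUBB4B at chr9:140135739-140138159 and TUBB6 at chr18:12307668-12344319. Each canonical transcript has 4 exons. The untranslated regions make up between 14.4% of the transcript in TUBB4B and 52.2% in TUBA1C, whose part after the stop codon is 1373 bases long.

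Some of these genes share so much sequence that reads may have been counted for the wrong gene or left uncounted. Of the 50-base words of the annotated exons, TUBA1B shared 62.7%, TUBA1A 50.6% and TUBA1C 26.7% with other genes, mostly with each other. TUBB2A shared 59.5% of its words with TUBB2B, and TUBB6, with 1.1%, shared the smallest part. In addition, 92.8% of the exon bases of TUBB3 lie under a second protein-coding gene model without a symbol (ENSG00000198211) and 30.6% of those of TUBA4A under STK16. The sources used here do not give the counting mode for such reads or the strand setting, so the levels of the TUBA1 genes, TUBB2A, TUBB3 and TUBA4A are less certain than that of TUBB6.

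Among the alpha tubulins, TUBA1B had the highest mean in all 3 parameters. Its TR was 105 and 107 RPKM, its RA 376, 74.0 and 171 RPKM and its TA 114 and 295 RPKM. The 2 TR values were close together, whereas RA replicate 1 was 5.08 times RA replicate 2, and the TR values lay inside the RA range. TUBA1C followed, with a TR of 43.99 and 54.7 RPKM, an RA of 163, 59.2 and 91.0 RPKM and a TA of 100.8 and 159 RPKM. All of its RA and TA values lay above both TR values.

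TUBA1A was transcribed almost as strongly as TUBA1C but was less abundant as mRNA. Its TR was 37.9 and 44.2 RPKM, its RA 51.7, 14.7 and 20.6 RPKM and its TA 27.0 and 38.9 RPKM. The RA values of TUBA1C lay above those of TUBA1A without overlap, whereas their TR values overlapped. TUBA4A had the lowest mean of the alpha tubulins throughout, with a TR of 27.0 and 20.9 RPKM, an RA of 33.2, 12.5 and 18.2 RPKM and a TA of 20.1 and 34.4 RPKM. Its RA and TA ranges overlapped those of TUBA1A, although TUBA1A was the higher of the pair in each single library.

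Among the beta tubulins, TUBB4B and TUBB stood highest. TUBB4B had a TR of 309 and 300.4 RPKM, an RA of 511, 96.4 and 217 RPKM and a TA of 203 and 538 RPKM. TUBB had a TR of 173 and 154 RPKM, an RA of 404, 147 and 259 RPKM and a TA of 174 and 390 RPKM. TUBB4B was thus above TUBB in both TR libraries without overlap, but in only 1 of 3 RA libraries, so their order in RA was not larger than the spread between libraries.

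TUBB3, the isotype known from neurons, was the third beta tubulin of these colon cells, with a TR of 74.1 and 67.7 RPKM, an RA of 197, 71.1 and 114 RPKM and a TA of 107 and 207 RPKM. TUBB6 came next, with a TR of 29.9 and 37.3 RPKM, an RA of 52.1, 25.7 and 33.7 RPKM and a TA of 44.5 and 71.6 RPKM. TUBB2A was lower, with a TR of 18.7 and 20.2 RPKM, an RA of 16.4, 8.33 and 13.3 RPKM and a TA of 17.2 and 33.2 RPKM. TUBB3, TUBB6 and TUBB2A kept this order in every library, and the values of neighbours did not overlap within any parameter.

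TUBB2B was listed close to 0. It had 1 and 2 reads in TR, 1, 0 and 1 reads in RA and 2 and 1 reads in TA, all below a floor of 3 reads, so no fold change is given. That floor allows up to 0.438 RPKM in the shallowest TR library and up to 0.0732 RPKM in the RA libraries, for counting error only.

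**Figure D1:**
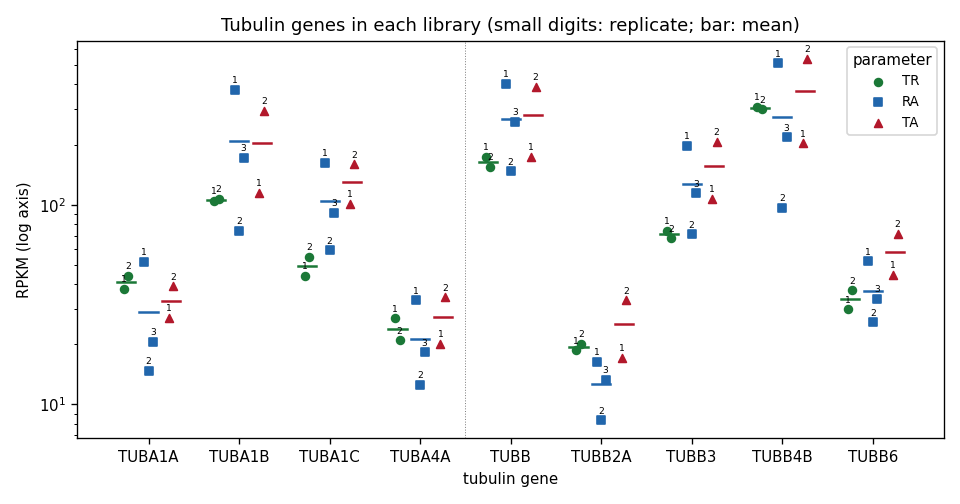
RPKM of the 9 tested tubulin genes on a log axis, with 1 point per library (TR circles, RA squares, TA triangles), the replicate number above each point and a bar at the mean. The 2 TR points of a gene differ by at most 1.29-fold, while RA replicate 1 is above RA replicate 2 and TA replicate 2 above TA replicate 1 for all 9 genes.

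The comparison of RA with TR asks how abundant each mRNA was for its rate of transcription, and log2(RA/TR) is here called the stability index. None of the 9 tubulin genes was called in either direction by limma after Benjamini-Hochberg adjustment, although 1 had an unadjusted p under 0.05. Over all genes, 19.2% were called higher and 48.0% lower. The highest index was that of TUBA1C, at 0.96 ± 0.41 (SE; adjusted p = 0.065), followed by TUBB3 at 0.72 ± 0.44, TUBA1B at 0.67 ± 0.65 and TUBB at 0.60 ± 0.47. TUBB6 had 0.09 ± 0.32. The lowest were TUBA1A at -0.71 ± 0.47, TUBB2A at -0.67 ± 0.35, TUBB4B at -0.47 ± 0.67 and TUBA4A at -0.27 ± 0.40. Thus the 2 genes with the highest TR, TUBB4B and TUBB, had indices of opposite sign, and neither was called.

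The indices read differently against the other genes. The median index was 0.09 over the 9 tubulin genes and -0.58 over all 14305 genes, so 7 of 9 lay above the median gene and TUBA1C stood at percentile 87.5. When each library was centred on its median, the median index rose by 0.67 on the log2 scale and the calls over all genes went from 2743 higher and 6870 lower to 5066 higher and 4814 lower. With that centring, TUBA1C at 1.63 (adjusted p = 0.0051), TUBB3 at 1.40 (adjusted p = 0.015) and TUBB at 1.28 (adjusted p = 0.032) were called higher by limma, 3 of 9 where 35.4% of all genes were. TUBB4B, TUBA4A and TUBB2A changed sign, to 0.21, 0.40 and 0.01. The groups did not overlap for TUBA1C, which was higher in every RA library, and for TUBB2A, which was lower in every one, where 24.3% and 54.9% of all genes did the same. Without RA replicate 2, TUBA1B, TUBA1C and TUBB3 were called higher, 3 of 9 where 2644 of 14305 genes were. Without RA replicate 1, TUBA1A was called lower, 1 of 9 where 6968 of 14305 genes were.

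The comparison of TA with RA asks how abundant each mRNA was on polysomes for its total abundance, and log2(TA/RA) is here called the translation index. Both are scaled within their own library, so the index gives no fraction of an mRNA on polysomes. All 9 tubulin genes had an index above 0, where 30.8% of all genes had one, and none was called by limma. The index was 0.96 ± 0.35 (SE; adjusted p = 0.063) for TUBB2A, 0.66 ± 0.32 for TUBB6 and 0.59 ± 0.67 for TUBB4B. It was 0.42 ± 0.40 for TUBA4A, 0.41 ± 0.41 for TUBA1C, 0.37 ± 0.47 for TUBA1A and 0.34 ± 0.44 for TUBB3. The most abundant mRNAs beside TUBB4B had the lowest index, with 0.13 ± 0.65 for TUBA1B and 0.07 ± 0.47 for TUBB.

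The median translation index was 0.41 over the 9 genes against -0.37 over all genes, and each of the 9 lay above that median, from percentile 73.3 for TUBB to 97.8 for TUBB2A. Over all genes, 6.66% were called higher and 29.2% lower. TUBB2A was also the only 1 of the 9 whose TA values lay above every RA value, as those of 14.4% of all genes did. Centring the libraries raised the median index by 0.50, turned 953 higher and 4173 lower calls into 2713 and 1404, and brought TUBB2A at 1.47 (adjusted p = 0.013) and TUBB6 at 1.16 (adjusted p = 0.025) past the threshold in limma, 2 of 9 where 19.0% of all genes were called higher. The sign depended on single libraries in 5 genes: without TA replicate 2 it was -0.56 for TUBA1B, -0.51 for TUBB, -0.13 for TUBB3 and -0.12 for TUBB4B, and without RA replicate 2 these 4 genes were between -0.47 and -0.01 and TUBA1A at -0.01. Without RA replicate 1, TUBA1A, TUBB2A and TUBB6 were called higher. None of the 9 was called without RA replicate 2 or RA replicate 3. In those fits the index of TUBB2A was 0.69 (adjusted p = 0.12 in limma) and 1.02 (adjusted p = 0.11), and that of TUBB6 0.43 and 0.62. With 1 TA library left, the index of TUBB2A was 1.44 without TA replicate 1 and 0.49 without TA replicate 2. That of TUBB6 rose without TA replicate 1 and fell to 0.32 without TA replicate 2.

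Compared directly with TR, TA was higher for 1 tubulin gene. TUBA1C had a log2(TA/TR) of 1.37 ± 0.44 (SE; adjusted p = 0.022 in limma), which is 2.58-fold. Of all genes, 17.0% were called higher and 57.5% lower, so 1 of 9 is not above that background. TUBB3 had 1.07 ± 0.48 (adjusted p = 0.073), TUBA1B 0.79 ± 0.71, TUBB6 0.75 ± 0.36 and TUBB 0.67 ± 0.52. In these 5 genes every TA value lay above both TR values, as in 22.7% of all genes. TUBB2A, TUBA4A and TUBB4B, between 0.12 and 0.30, and TUBA1A at -0.33 had overlapping groups.

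The call of TUBA1C was lost without either TR library and without TA replicate 2, with adjusted p of 0.16 and 0.095 without TR replicates 1 and 2 and 0.12 without TA replicate 2. Without RA replicate 1 or RA replicate 2, TUBB3 and TUBB6 were called with it, where 2601 and 2482 of 14305 genes were called higher. RA is no part of this ratio, so TUBB3 stayed at 1.07 and TUBB6 at 0.75. Only the SE changed, since all libraries share 1 fit: that of TUBB6 went from 0.36 to 0.27 and 0.30. Without TA replicate 1, the ratio was 1.54 for TUBB3 and 1.10 for TUBB6. The median log2(TA/TR) was 0.67 over the 9 genes and -1.08 over all genes, a difference that centring showed as calls of 7 of the 9 genes, all but TUBA1A and TUBB4B, where 38.0% of all genes were called higher. Centring raised this median by 1.17, with 2439 higher and 8231 lower calls becoming 5436 and 5044. TUBA1A then stood at 0.84 rather than at -0.33.

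**Figure D2:**
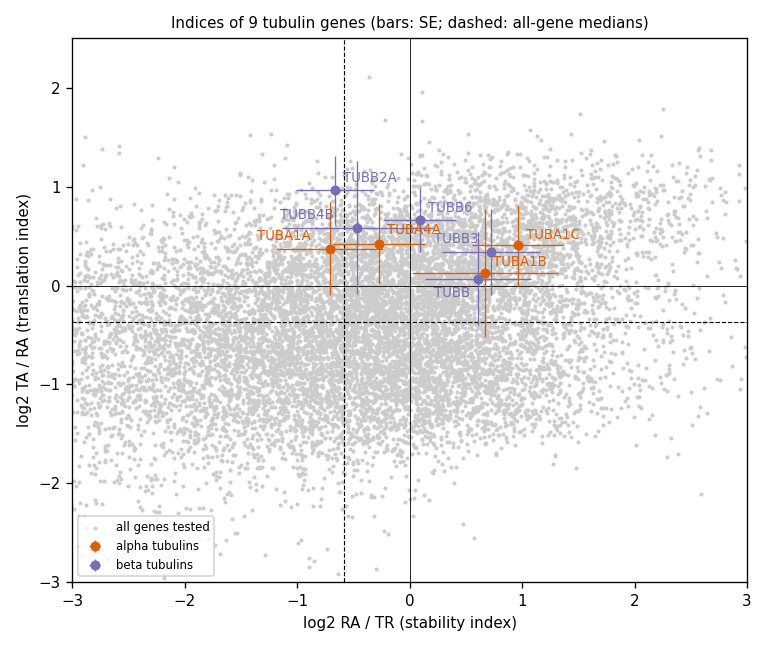
Stability index (horizontal, log2 RA/TR) and translation index (vertical, log2 TA/RA) of the 9 tested tubulin genes, alpha in orange and beta in purple, with SE bars over grey points for all genes within the axes. The dashed lines are the all-gene medians of -0.58 and -0.37, and all 9 tubulin genes lie above the horizontal one.

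The wide errors had a common form: the tubulin mRNAs differed in the same direction between libraries of the same parameter. All 9 genes were highest in RA replicate 1, lower in replicate 3 and lowest in replicate 2. RA replicate 1 exceeded replicate 2 by 5.30-fold for TUBB4B, 5.08-fold for TUBA1B, 3.49-fold for TUBA1A, 2.78-fold for TUBB3, 2.75-fold for TUBB, 2.74-fold for TUBA1C, 2.64-fold for TUBA4A, 2.02-fold for TUBB6 and 1.96-fold for TUBB2A. The median log2 difference was 1.46 over the 9 genes, against 0.02 (SD 0.66) over the 10825 genes reaching 1 RPKM in TR, RA and TA alike, and the 9 genes stood between percentile 92.7 and 99.6. Of those 10825 genes, 6.74% were higher in replicate 1 by more than 1 on this scale, as 8 of the 9 tubulin genes were.

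TA replicate 2 was likewise above replicate 1 for all 9 genes. The log2 difference ran from 0.53 for TUBA1A to 1.41 for TUBB4B with a median of 0.95, against 0.02 (SD 0.50) over all genes. TUBB4B and TUBA1B differed most in both parameters. The 2 TR libraries showed no such shift. Their differences lay between -0.32 and 0.37, with 4 of 9 above 0, although these libraries were the shallowest. The sums over the 10 genes were 818 and 807 RPKM in TR, 1804, 509 and 938 RPKM in RA and 808 and 1767 RPKM in TA. The reads of the 10 genes made 0.175% and 0.172% of the library size in TR, 0.388%, 0.118% and 0.211% in RA and 0.179% and 0.382% in TA. These are bulk libraries, in which fewer cells of a kind and less RNA per cell cannot be told apart.

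**Figure D3:**
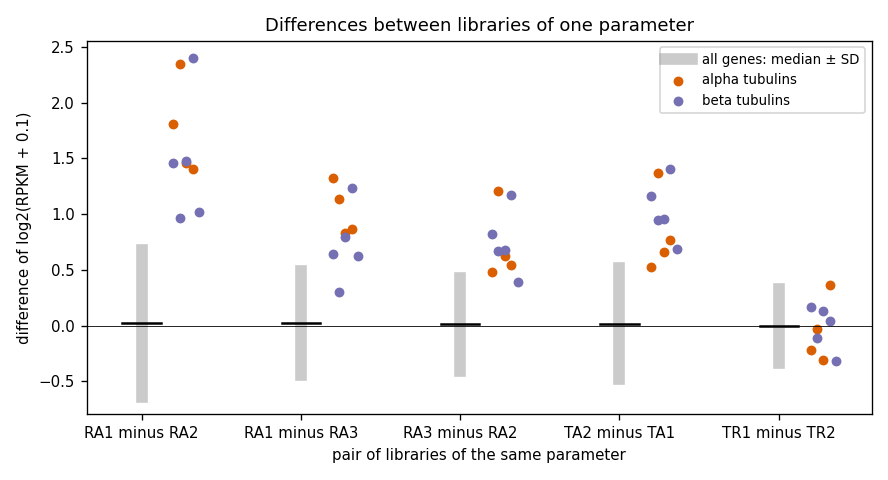
Difference in log2(RPKM + 0.1) between pairs of libraries of the same parameter, with alpha tubulins in orange, beta tubulins in purple and a grey bar for the median ± SD of 10825 genes. The tubulin points lie above 0 in all pairs of RA and TA libraries as ordered here and around 0 in the pair of TR libraries.

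Base composition, RA level and transcript length were set beside the differences between libraries. The tubulin transcripts have a GC content of 50.2% to 62.2%. When genes were divided into 10 groups by GC content, the median difference between RA replicates 1 and 2 in the 4 groups that hold tubulin genes was between -0.04 and 0.08, and after these medians were subtracted the tubulin genes still differed by 0.89 to 2.39. Their ranks within their own GC group were at percentile 93.3 to 99.8. The group of highest GC content, which holds no tubulin gene, had a median of 0.37, and of 0.38 between TA replicates 2 and 1. In 5 groups of genes by RA level, the median difference between RA replicates 1 and 2 was between 0.00 and 0.04. By transcript length, the median between TA replicates 2 and 1 went from 0.19 in the shortest group to -0.11 in the longest. These are medians of many genes set beside single genes, and the part of these properties in the tubulin values was not tested.

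Other gene groups did move with the tubulin genes. Looking at the values showed genes of DNA replication and mitosis at one end of the difference between RA libraries and genes of the endoplasmic reticulum and amino acid stress response at the other, so 3 lists of 12 genes each were put together after the values were seen, and no test was made. All 12 replication genes were higher in RA replicate 1 than in replicate 2, by a median of 2.24 on the log2 scale, from 1.32 for PCNA, the sliding clamp of replication, to 3.37 for RRM2, the small subunit of ribonucleotide reductase. RRM2 had 195, 18.8 and 69.2 RPKM in the RA libraries. All 12 mitosis genes were also higher, by a median of 1.82, with CCNA2, the gene of cyclin A2, at 2.28. All 12 stress genes were lower, with a median of -2.22 and DDIT3, a transcription factor of the stress response, at -3.55.

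Between TA replicates 2 and 1 the replication genes differed by a median of 1.07 and the mitosis genes by 0.92, with every gene of both lists above 0. The stress genes differed by a median of -0.26, from -0.96 for ASNS to 0.58 for DDIT3, with 2 of 12 above 0. Between TR replicates 1 and 2 the medians were 0.29, -0.02 and -0.48. The RA libraries therefore stood in the same order for tubulin, replication and mitosis genes, and the part of such a difference between the cells in the tubulin values was not tested. In the other lists of the tubulin pathway the medians between RA replicates 1 and 2 lay between -0.18 for the folding factors and 0.45 for the nucleation factors. All 4 autoregulation factors were above 0, from 0.33 to 0.43, and 8 of 9 nucleation factors were. The other lists had members well to both sides: the other tubulins ran from -1.71 to 1.24 and the microtubule-binding genes from -1.77 to 2.39. TUBB4A, with 27.3, 13.3 and 20.5 RPKM in the RA libraries and 29.5 and 52.2 RPKM in the TA libraries, stood in the same order as the 9 genes. So did TUBG1, with 52.1, 21.97 and 38.3 RPKM in RA and 44.7 and 90.2 RPKM in TA, and STMN1, with 140.2, 65.9 and 100.5 RPKM in RA and 70.9 and 130.6 RPKM in TA. TUBE1, of the other tubulins, stood in the reverse order, with 10.3, 33.9 and 24.3 RPKM in RA and 25.9 and 16.2 RPKM in TA. PFDN2, a folding factor, did too, with 147, 372 and 222 RPKM in RA and 573 and 401 RPKM in TA.

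**Figure D4:**
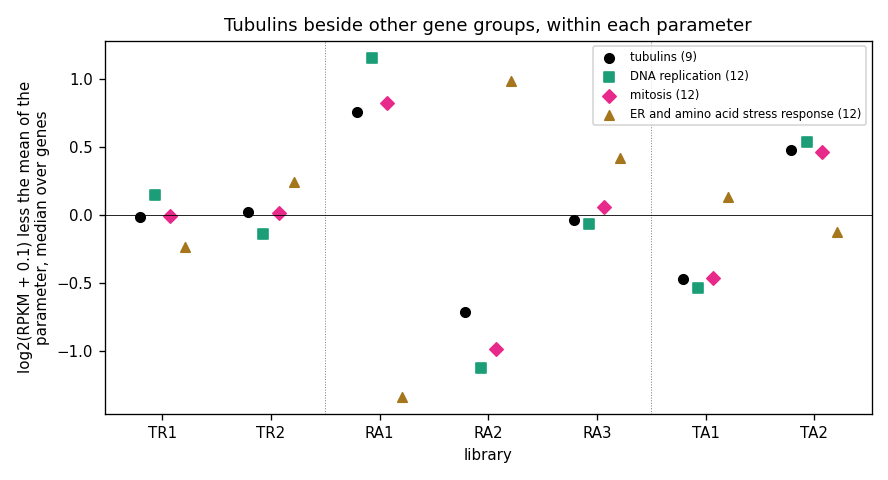
Deviation of each library from the mean of its parameter in log2(RPKM + 0.1), as the median over 9 tubulin genes (black), 12 DNA replication genes, 12 mitosis genes and 12 genes of the ER and amino acid stress response, lists put together after the values were seen. Tubulins stood at 0.76, -0.72 and -0.04 in the RA libraries, with replication and mitosis genes on the same side in replicates 1 and 2 and stress genes on the other.

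In RA and TA, where the tubulin genes moved together, the ratio of alpha to beta tubulin was steadier than the levels. In TR it was not, as the sums there were close, at 220.1 ± 9.56 RPKM for alpha and 592.5 ± 17.5 RPKM for beta tubulin (SD, n = 2). The summed alpha tubulin RPKM was 0.353 and 0.391 of the summed beta tubulin RPKM in TR, 0.528, 0.460 and 0.473 in RA, and 0.481 and 0.425 in TA. The mean ratio was 0.372 ± 0.0272 (SD, n = 2) in TR, 0.487 ± 0.0363 (SD, n = 3) in RA and 0.453 ± 0.0395 (SD, n = 2) in TA. Both TR values lay below all RA and TA values, and RA and TA overlapped. These ratios are a description and were not tested, and they carry the uncertainty of reads shared between genes. The alpha sum in RA went from 160 to 624 RPKM and the beta sum from 348 to 1180 RPKM.

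The isotypes made up different parts of their class in TR and in RA. TUBB4B made up 51.4% ± 0.55 (SD, n = 2) of beta tubulin in TR, 35.0% ± 7.85 (SD, n = 3) in RA and 40.3% ± 4.36 (SD, n = 2) in TA. TUBB made up 27.6% ± 1.48 (SD, n = 2) in TR, 39.0% ± 4.24 (SD, n = 3) in RA and 31.7% ± 0.33 (SD, n = 2) in TA. TUBB3 made up 11.96% ± 0.40 (SD, n = 2) in TR, 18.3% ± 1.87 (SD, n = 3) in RA and 18.1% ± 2.02 (SD, n = 2) in TA. For these 3 genes the TR and RA shares did not overlap. TUBB6, at 5.69% in both TR and RA, and TUBB2A, at 3.28% in TR and 1.95% in RA, made up little. The TR and RA shares of TUBB2A did not overlap either.

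Within alpha tubulin, TUBA1A made up 18.6% ± 1.23 (SD, n = 2) in TR and 8.10% ± 1.18 (SD, n = 3) in RA, with 17.7% as its lowest TR share and 9.18% as its highest RA share, and it made up 8.85% ± 2.06 (SD, n = 2) in TA. TUBA1C made up 22.4% ± 2.47 (SD, n = 2) in TR, 31.1% ± 5.47 (SD, n = 3) in RA and 34.3% ± 5.83 (SD, n = 2) in TA, also without overlap between TR and RA. TUBA1B made up 48.1%, 54.5% and 49.7% in the 3 parameters with overlapping libraries. TUBA4A made up 10.9% in TR and 6.39% in RA, without overlap between them.

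**Figure D5:**
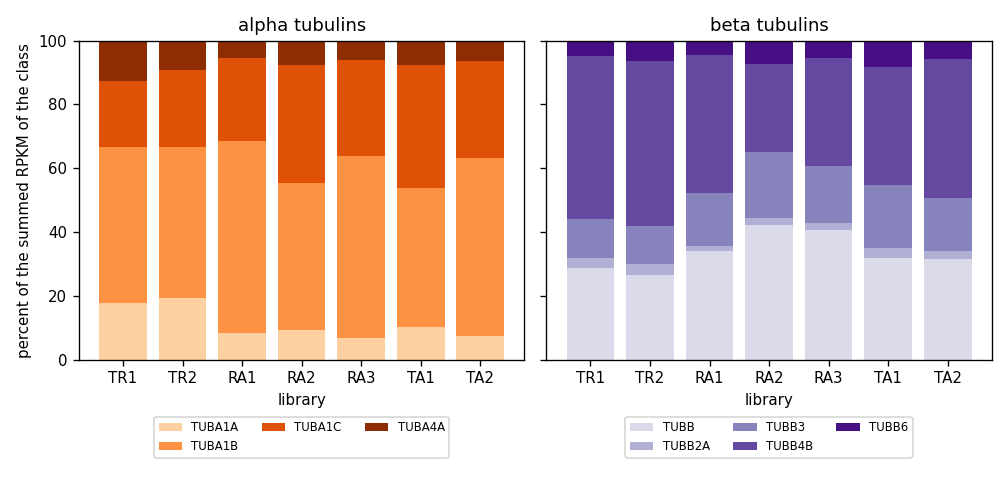
Share of each isotype in the summed RPKM of its class, in percent and by library, for the 4 alpha tubulins (left) and the beta tubulins without TUBB2B (right). TUBB4B holds 51.0% to 51.8% of beta tubulin in TR and 27.7% to 43.3% in RA, and TUBA1A 17.7% to 19.5% and 6.84% to 9.18% of alpha tubulin.

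Of 12 other tubulin genes, 10 were tested. In RA against TR, 6 of the 10 were called lower, where 48.0% of all genes were, and 1 higher, where 19.2% were, with a median index of -1.49 against -0.58 over all genes. TUBB1, the platelet beta tubulin, had a mean TR of 21.9 RPKM and a mean RA of 0.242 RPKM, a log2 ratio of -6.07 ± 0.33 (SE; adjusted p = 1.7e-06 in limma). TUBA3D, known from testis, had 8.88 and 0.0501 RPKM, and TUBA8 8.38 and 1.11 RPKM. TUBE1, the epsilon tubulin of centrioles, was the 1 called higher, at 1.23 ± 0.46. TUBB4A rose from a mean TR of 15.5 RPKM to a mean TA of 40.9 RPKM, by 1.34 on the log2 scale (adjusted p = 0.011 in limma), and TUBAL3 had a mean of 0.609, 0.654 and 1.25 RPKM in TR, RA and TA.

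The folding factors take new tubulin from the ribosome to the finished heterodimer, by way of prefoldin and the tubulin cofactors. Of 13, all were tested. In RA against TR, 9 were called higher and 1 lower, where 19.2% and 48.0% of all genes were, with a median index of 1.13 against -0.58 over all genes. PFDN2, a prefoldin subunit, had a mean TR of 44.3 RPKM and a mean RA of 247 RPKM, a log2 ratio of 2.37 ± 0.38 (adjusted p = 7.0e-04 in limma), and VBP1, another subunit, had a ratio of 2.30 ± 0.16. TBCC, the cofactor that triggers hydrolysis of GTP, was the 1 called lower, at -1.72 ± 0.20, and PFDN6 was at -0.22. In TA against RA, 4 were called higher, where 6.66% of all genes were, among them ARL2, a GTPase that binds the cofactors, at 1.08 ± 0.21, and TBCEL was called lower at -1.35 ± 0.22. PFDN2 had 1.06 and TBCD -0.09 there, neither called.

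All 4 factors of the tubulin autoregulation pathway were expressed. TTC5, which reads the nascent chain, had a mean TR of 8.14 RPKM, a mean RA of 12.8 RPKM and a mean TA of 17.8 RPKM, and was called higher in RA against TR, at 0.65 ± 0.21 (adjusted p = 0.026 in limma). SCAPER, the adaptor, had 5.29, 2.88 and 2.30 RPKM and was called lower, at -0.86 ± 0.23. CNOT1, the scaffold of the deadenylase, was called higher in RA against TR at 0.76 ± 0.20 and lower in TA against RA at -0.60 ± 0.20. CNOT11, its subunit that binds SCAPER, was called in neither.

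Of 17 genes that modify tubulin, 3 were called higher and 8 lower in RA against TR, close to the 19.2% and 48.0% of all genes. In TA against RA none was called higher and 8 lower, where 6.66% and 29.2% of all genes were, with a median translation index of -0.91 against -0.37 over all genes. TTL, the ligase that restores the terminal tyrosine of alpha tubulin, was called higher in RA against TR at 0.76 ± 0.26 and lower in TA against RA at -1.71 ± 0.26. ATAT1, the acetyltransferase of alpha tubulin, was called lower in RA against TR at -2.07 ± 0.20, and HDAC6, a deacetylase, higher at 0.74 ± 0.25. TTLL3, a glycylase, was lower in both, at -2.90 and -2.33, and AGBL5, a deglutamylase, at -1.33 and -1.85. AGBL2 and VASH2 were at -5.24 and -5.73 in RA against TR, with a mean RA of 0.00863 and 0.0354 RPKM.

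Of 9 nucleation factors, 3 were called higher and 2 lower in RA against TR, where 19.2% and 48.0% of all genes were, and 3 lower in TA against RA, where 29.2% were. MZT1, a small subunit of the gamma tubulin ring complex, had the highest stability index of these at 2.58 and a translation index of -1.23, both called. TUBGCP6 was called lower in both, at -0.87 and -1.70, TUBGCP4 lower in the first at -0.81 and MZT2B higher in it at 1.26. NEDD1 and TUBGCP5 were called in neither. Of 21 tested genes that bind microtubules or govern their dynamics, 7 were called higher and 3 lower in RA against TR, where 19.2% and 48.0% of all genes were, and 2 lower in TA against RA, where 29.2% were. MAPRE1, the end-binding protein EB1, was higher at 1.68 and STMN1, the tubulin-sequestering stathmin, at 1.22, whereas MAP1A, a protein known from neurons, was lower at -3.56 and MAPT, the gene of tau, at -0.92. In TA against RA, the highest were MAP4 at 0.45 and MAPRE3 at 0.39, neither called.

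The genes most like the tubulins in the 2 indices were found by distance to the medians of the 9 genes, over 10816 other genes reaching 1 RPKM in TR, RA and TA alike. The 5 nearest were PGGT1B, SLC1A1, NDUFA3, YTHDF2 and CNOT3, at distances of 0.004 to 0.029 on the log2 scale. Their stability indices were 0.08 to 0.10 and their translation indices 0.39 to 0.43. CNOT3, a subunit of the CCR4-NOT complex, had a mean RA of 36.7 ± 5.12 RPKM (SD, n = 3). Between RA libraries these genes differed less than the tubulin mRNAs: YTHDF2 had 32.5, 35.8 and 28.3 RPKM and NDUFA3 77.2, 58.4 and 73.4 RPKM. The SE of the stability index was 0.18 to 0.28 in these 5 genes and 0.32 to 0.67 in the tubulin genes.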

How the data were processed

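Per the study's methods, the authors aligned GRO-seq, RNA-seq and polysome reads to hg19 by TopHat, with its defaults, and took exon counts per gene from HTSeq. The deposited values are RPKM made from those counts, 1 column per library. Versions, counting mode, strand setting and annotation are not given in the sources used here. The deposited table holds 20072 symbols, 20056 with values, and every sample column was mapped to its label.

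Library sizes and reads per gene were recovered from the RPKM steps, since 100% of 111346 values above 0 were whole reads within 0.01. The 14305 genes whose mean reached 1 RPKM in TR, RA or TA were tested by limma (version 3.58.1, R 4.3.3) with a variance trend. The fit used log2(RPKM + 0.1) of all 7 libraries, so the SE of each comparison also holds the spread of the third assay. P-values were adjusted by Benjamini-Hochberg with a threshold of 0.05. Fold changes are on the log2(RPKM + 0.1) scale and understate the change of low genes. On simulated data for RA against TR over 14305 genes, the fit called 83% of 112 genes changed by 2 on the log2 scale and 100% of 88 changed by 4 with the correct sign, and 3 of 14105 genes left unchanged. Those changes are larger than any tubulin index in RA against TR, and the simulated noise was independent between genes. The share called at the size and spread of the tubulin genes was not simulated. Sums, shares and differences were computed in Python 3.11.15 with pandas 2.3.3 and plotted with matplotlib 3.10.9.

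GENCODE release 44 lifted to GRCh37, the build of hg19, gave coordinates, coding starts, shared 50-base words and GC content, and 18613 symbols matched it. The members and gene lists were chosen with earlier results of these data known. The text names the 10 members, the 2 highest and 2 lowest tested genes of each pathway list in either index, and the 5 nearest genes, except for 1 result that is not reported here. Where other genes are named, they were chosen after their values were seen, as were the 3 lists of replication, mitosis and stress genes. Alternatives covered the pseudocount, the filter, centring, a replicate block and each replicate left out. A crossed block and removal of a GC trend were added after the data were seen.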

Additional observations from a re-analysis of the deposited data

How the results depend on the processing

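Of 405 values of single tubulin genes under the alternatives, 353 kept their direction and their side of the threshold, 27 passed it, 4 lost it and 21 changed sign. Some of these leave out a library of the third assay, where the log2 ratio cannot change and only its SE can. Without the fits that leave out a library, the 4 counts were 198, 13, 1 and 4. Centring the libraries made 3 tubulin genes called higher in RA against TR, 2 in TA against RA and 7 in TA against TR, where the uncentred counts were 0, 0 and 1, and moved TUBA4A, TUBB2A and TUBB4B to 0.40, 0.01 and 0.21 in RA against TR and TUBA1A to 0.84 in TA against TR. Without the filter, TUBB2B was called lower in RA against TR and in TA against TR, 1 gene each, on 0 to 2 reads a library. Pseudocounts of 0.01 and 1, the stricter filter and removal of the GC trend changed no call of a tubulin gene.

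Leaving out 1 library gave 0 to 3 tubulin genes called higher in each comparison and 0 to 1 called lower in RA against TR. Over those fits the log2 ratio ran from -0.65 to 0.05 for TUBA4A, -1.07 to 0.13 for TUBB4B and -0.18 to 0.33 for TUBB6 in RA against TR. In TA against RA it ran from -0.01 to 0.89 for TUBA1A, -0.56 to 0.81 for TUBA1B, -0.51 to 0.65 for TUBB, -0.13 to 0.82 for TUBB3 and -0.12 to 1.29 for TUBB4B, and in TA against TR from -0.24 to 0.53 for TUBA4A, -0.18 to 0.77 for TUBB2A and -0.58 to 0.82 for TUBB4B. The cause was not tested.

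With the replicate number as a block, 0 tubulin genes were called in each comparison, TUBA1C in TA against TR at an adjusted p of 0.062 in limma. Over all genes the calls in TA against RA fell to 109 higher and 1387 lower from 953 and 4173, and leaving out 1 library gave 198 to 1030 higher and 1803 to 4228 lower. The differences between replicates 1 and 2 correlated across 10825 genes at -0.562 for RA and TA, 0.149 for TR and RA and 0.02 for TR and TA, so the labels' numbers are not taken as a pairing. With the pairing crossed, an alternative added after the data were seen, 1 tubulin gene was called higher in TA against RA and 2 in TA against TR. The stricter filter called 3656 genes lower in RA against TR and 4935 in TA against TR, from 6870 and 8231, with 10825 genes tested. TR depth, a library size of at most 5629982 reads, leaves TUBB2A with 111 and 199 reads there, the fewest of the 9 tested genes.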
